A study of Mus musculus with 4 samples.

Results

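The NFκB and Rel transcription factor family of the mouse has 5 genes, Nfkb1, Nfkb2, Rel, Rela and Relb, and all of them were examined here as a complete gene family among the 53647 genes of the count tables. They were taken by gene symbol, with no threshold on any measured value, although earlier results of these data were known when the family was chosen. The question was how the transcript levels of the canonical subunits (Nfkb1, Rel and Rela) and of the noncanonical subunits (Nfkb2 and Relb) differed between myotubes treated with EDA-A2 and control myotubes.

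The series holds 4 bulk RNA sequencing libraries of primary myotubes from wild-type (WT) mice, 2 labelled Control and 2 labelled EDA-A2. Myoblasts had been isolated from the limb muscles of pups 2 to 3 days old and were differentiated in horse serum into myotubes, which are multinucleated muscle cells. The EDA-A2 cultures received recombinant ectodysplasin A2, a ligand of the TNF family that binds the receptor EDA2R, at 250 ng/ml for 24 h, and the labels place the harvest of all cells at 72 h after differentiation. The labels give the controls the same 24 h and do not say what they received in place of the ligand. Nothing in the labels says that the 2 libraries of a group came from separate animals or cultures, so the p-values below measure only the spread between these libraries, which may be technical.

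NFκB dimers are held inactive in the cytoplasm by inhibitory proteins. In the canonical pathway the IKK complex marks the inhibitor IκBα for degradation and frees dimers such as p50 with RelA, where p50 is the processed product of Nfkb1. In the noncanonical pathway, which is used by a subset of TNF receptors, the kinase NIK accumulates and p100, the product of Nfkb2, is cut to p52, which then enters the nucleus with RelB. The counts measured transcripts of whole genes, so neither the cutting of p105 and p100 nor the movement of dimers into the nucleus was visible in them.

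Depth was nearly equal, with 29444155 to 29746863 read pairs counted on genes in each library, and 3 counts, taken as the limit of detection, corresponded to 0.0994 to 0.104 CPM, the counts scaled to a fixed library total. Of 8 myotube markers, all were detected and 2 (Myh3 and Acta1) were called lower with EDA-A2, where 2.13% of all genes tested were called lower. The summed level of the 8 ran from 20200 to 21300 CPM in Control and from 15500 to 15700 CPM in EDA-A2. Most of this sum and of its difference came from Myh3 and Acta1. All 8 fitted log2 fold changes were below 0, but those of Mymk and Des were only -0.01 and -0.02. The 3 myoblast markers summed to 144 to 167 CPM in Control and 142 to 148 CPM in EDA-A2, and the 5 fibroblast markers to 185 to 324 and 173 to 210 CPM, with Thy1 and Lum at 0 in every library and nearly all of the sum from Col1a1. Markers of other cells were low: 4 endothelial markers summed to 0.997 to 1.23 CPM over all libraries, and 6 macrophage markers to 2.09 to 3.01 CPM, mostly from Cd68 and with C1qa at 0. In bulk samples fewer cells of a type and less RNA per cell cannot be told apart, and the part of the lower myotube markers in the results on the subunits was not tested.

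Transcripts of both noncanonical subunits were higher with EDA-A2, those of Nfkb2 at 3.71 times and those of Relb at 1.98 times the Control level, and none of the 3 canonical subunits passed the test. The words canonical and noncanonical name the pathway in which the proteins act. Which pathway, if either, lay behind these transcript levels was not tested. All 5 genes passed the filter on low counts. Of the 5, 2 were called higher and 0 were called lower, where 2.45% of the 15173 genes tested were called higher and 2.13% lower (edgeR's quasi-likelihood test, Benjamini-Hochberg adjusted p under 0.05 over all genes tested). Both EDA-A2 libraries lay above both Control libraries for 4 of the 5 subunits, all but Nfkb1, and for 22.8% of all genes tested.

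**Figure D1:**
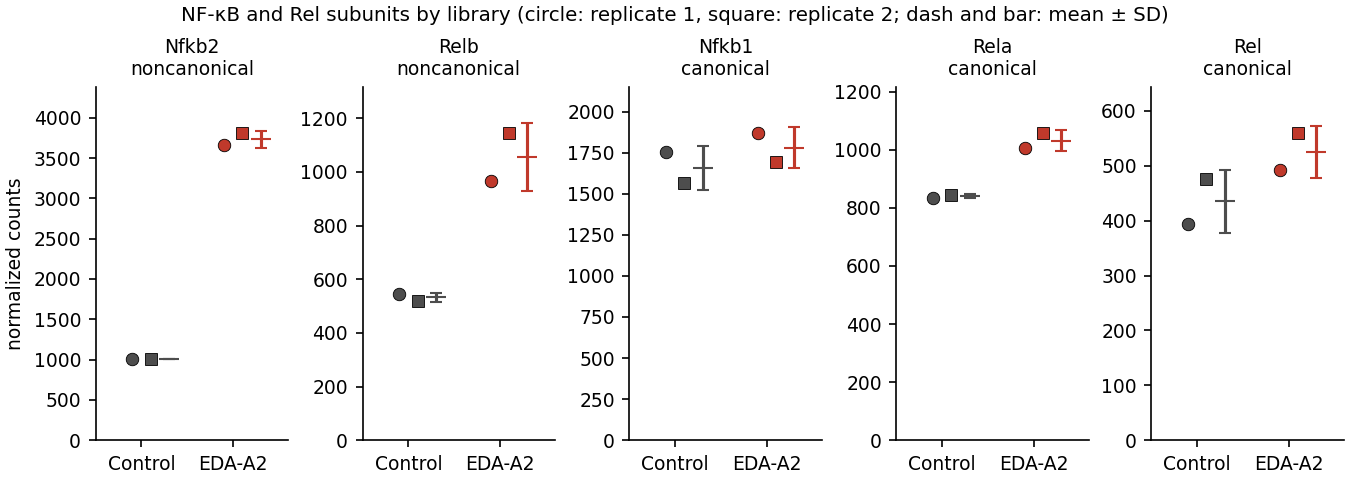
Normalized counts (y axis, from 0, scaled separately for each gene) of the 5 subunits in the 2 Control (grey) and 2 EDA-A2 (red) libraries, with the mean and SD of each group beside the points. Nfkb2 and Relb sit well apart between the groups, Rela and Rel sit apart by less, and the ranges of Nfkb1 overlap.

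Nfkb2 encodes p100, which in its uncut form also holds RelB in the cytoplasm as an inhibitor. The gene (ENSMUSG00000025225) lies on the plus strand at chr19:46292759-46303812 of GRCm39. Its normalized counts, scaled to a common library size, were 1008 and 1005 in Control against 3660 and 3808 in EDA-A2. The groups were far apart, and the Control libraries were nearly equal. The means were 1007 ± 1.61 and 3734 ± 105 (SD, n = 2 each), a log2 fold change of 1.89 with a standard error (SE) of 0.07 and a 95% interval of 1.74 to 2.05. The adjusted p was 9.46e-10 by edgeR's quasi-likelihood test, which placed Nfkb2 second of all genes tested, while by the size of the log2 fold change it stood at place 36.

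Relb encodes the partner of p52 and p100, a subunit that enters the nucleus mainly with p52. The gene (ENSMUSG00000002983) lies on the minus strand at chr7:19339017-19363425 of GRCm39. Its normalized counts were 545 and 520.3 in Control against 966.5 and 1144 in EDA-A2. The lowest EDA-A2 library stood well above the highest Control library, although the 2 EDA-A2 libraries differed more from each other than the Controls did. The means were 532.7 ± 17.5 and 1055 ± 126 (SD, n = 2 each), the log2 fold change was 0.99 (SE 0.10, 95% interval 0.77 to 1.20), and the adjusted p was 3.1e-05 by edgeR's quasi-likelihood test.

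Both calls needed both Control libraries in edgeR. With Control 1 or Control 2 left out, edgeR called 0 genes of any kind, with 2179 and 2449 genes at an unadjusted p under 0.05, and the adjusted p became 0.115 and 0.0842 for Nfkb2 and 0.284 and 0.19 for Relb. The fitted changes hardly moved, at 1.89 and 1.89 on the log2 scale for Nfkb2 and at 1.02 and 0.95 for Relb. The Wald test of DESeq2 called both genes in all 4 fits with a library left out, a combination added after the data were seen, with adjusted p-values of 2.55e-59 to 2.54e-29 for Nfkb2 and of 1.85e-06 to 0.00823 for Relb.

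Rela encodes the subunit with the main activation domain of canonical dimers. The gene (ENSMUSG00000024927) lies on the plus strand at chr19:5687493-5698161. Its normalized counts were 834.6 and 845 in Control and 1006 and 1057 in EDA-A2, so the groups did not overlap. The means were 839.8 ± 7.41 and 1032 ± 36.6 (SD, n = 2 each), the log2 fold change was 0.30 (SE 0.08, 95% interval 0.12 to 0.47), and the adjusted p of 0.057 from edgeR's quasi-likelihood test missed the threshold. Scaling by total counts, which raised the median log2 fold change of all genes to 0.053, gave 0.35 with an adjusted p of 0.0304 in edgeR, and a term for the replicate number gave 0.30 with an adjusted p of 0.0241.

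Rel encodes c-Rel, a subunit best known from lymphoid cells. It was the least counted of the family, and the gene (ENSMUSG00000020275) lies on the minus strand at chr11:23686847-23721264. Its normalized counts were 394.6 and 476 in Control and 492.1 and 559.2 in EDA-A2, where the higher Control library came close to the lower EDA-A2 library. The means were 435.3 ± 57.5 and 525.6 ± 47.5 (SD, n = 2 each), with a log2 fold change of 0.27 (SE 0.12, 95% interval 0.02 to 0.52) and an adjusted p of 0.263 by edgeR's quasi-likelihood test. Left-out libraries moved this change between 0.14, without Control 1, and 0.41, without Control 2.

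Nfkb1 encodes p105, the precursor of p50 and in its uncut form itself an inhibitor. It lies on the minus strand at chr3:135290264-135397742 (ENSMUSG00000028163). Its normalized counts were 1754 and 1563 in Control and 1868 and 1691 in EDA-A2, and the lower EDA-A2 library fell between the Control libraries. The means were 1658 ± 135 and 1780 ± 125 (SD, n = 2 each), the log2 fold change was 0.10 (SE 0.08) and the adjusted p was 0.639 by edgeR's quasi-likelihood test. The 95% interval of the log2 fold change, -0.07 to 0.28, excludes a change as large as that of Relb.

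The canonical and noncanonical genes were next compared within each library, where a ratio of counts does not depend on the library's scaling. Nfkb2 and Nfkb1 are the 2 genes that encode precursor proteins. The ratio of Nfkb2 to Nfkb1 counts was 0.575 and 0.643 in Control against 1.96 and 2.25 in EDA-A2. Nfkb2 thus had fewer counts than Nfkb1 in both Control libraries and more in both EDA-A2 libraries. The mean ratio was 0.609 ± 0.049 in Control and 2.11 ± 0.21 in EDA-A2 (SD, n = 2 each), and the log2 fold change of Nfkb2 exceeded that of Nfkb1 by 1.79 (SE 0.11, from the standard errors of both genes). This standard error and those of the pairs below take the 2 genes as independent, although both were counted in the same libraries.

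Relb and Rela encode subunits with an activation domain. The ratio of Relb to Rela counts was 0.653 and 0.616 in Control and 0.961 and 1.08 in EDA-A2. The groups did not overlap, and the ratio came near to equal counts with EDA-A2. The means were 0.634 ± 0.026 and 1.02 ± 0.085 (SD, n = 2 each), and the difference of the log2 fold changes was 0.69 (SE 0.13). With 2 libraries against 2, an exact two-sided permutation test of a ratio cannot give a p below 0.333, so no p is given.

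Within the noncanonical pair, Nfkb2 rose by more than Relb, with a difference of log2 fold changes of 0.91 (SE 0.12) and a count ratio that went from 1.85 and 1.93 in Control to 3.79 and 3.33 in EDA-A2. Among canonical subunits, the log2 fold change of Rel differed from that of Rela by -0.03 (SE 0.14), and the ratio of Rel to Rela counts was 0.518 ± 0.064 in Control and 0.509 ± 0.028 in EDA-A2 (SD, n = 2 each). The log2 fold change of Rela exceeded that of Nfkb1 by 0.19 (SE 0.12). The Rel to Rela ratio overlapped between the groups. The Rela to Nfkb1 ratio was 0.476 and 0.541 in Control and 0.538 and 0.625 in EDA-A2, and it overlapped too.

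**Figure D2:**
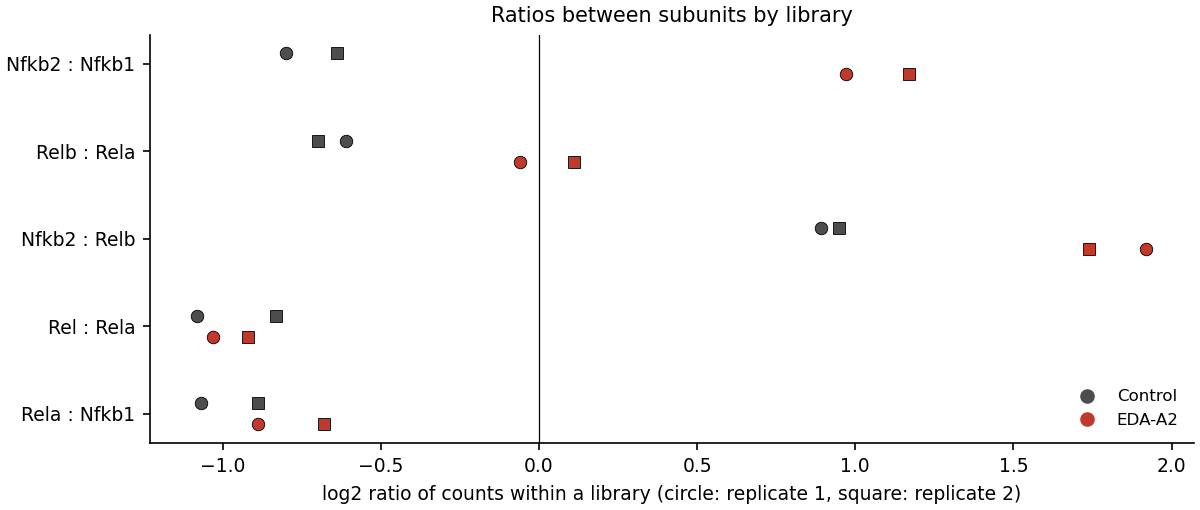
Log2 ratio of the counts of 2 subunits within each library (x axis), for 5 pairs (rows), with Control in grey, EDA-A2 in red, circles for replicate 1 and squares for replicate 2. The first 3 pairs, which hold Nfkb2 or Relb, separate the groups, and the points of Rel to Rela and of Rela to Nfkb1 overlap.

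Summed over the 5 genes, the normalized counts of the family were 4535 and 4410 in Control and 7992 and 8260 in EDA-A2. The mean sum went from 4473 ± 88.9 to 8126 ± 189 (SD, n = 2 each), a ratio of 1.82, and Nfkb2 alone made up 74.7% of the increase.

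To compare levels between genes, counts were divided by the length of the merged annotated exons of each gene. On this scale of CPM per kilobase, Rela had the highest mean level in Control, at 8.67 ± 0.077 (SD, n = 2). Nfkb1 at 4.36 ± 0.35 and Nfkb2 at 4.31 ± 0.0069 came next and did not differ beyond their spread, followed by Relb at 3.54 ± 0.12 and Rel at 1.9 ± 0.25. In EDA-A2 the highest mean level was that of Nfkb2 at 16 ± 0.45, followed by Rela at 10.6 ± 0.38, Relb at 7.01 ± 0.83, Nfkb1 at 4.68 ± 0.33 and Rel at 2.29 ± 0.21, with no neighbours within each other's spread.

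As a share of the family's summed level per kilobase, Nfkb2 took 18.8% and 19% in Control against 39.6% and 39.1% in EDA-A2. The share of Relb was 15.8% and 15.3% in Control and 16.3% and 18.2% in EDA-A2, a small gain beside that of Nfkb2. The share of Rela was 38.1 ± 0.59% in Control and 26.2 ± 0.062% in EDA-A2 (SD, n = 2 each), although its own level was not lower. Nfkb1 went from 19.2 ± 1.4% to 11.6 ± 1.2% and Rel from 8.33 ± 1.2% to 5.63 ± 0.30%.

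The order in Control depended on the length used, since the merged exons of Nfkb1 span 12848 bases and its longest coding transcript 4802 bases. With the longest coding transcript, Nfkb1 held the highest mean share in Control, at 34.6%, and Rela held 29.9%, while Nfkb2 still held the highest mean share in EDA-A2, at 32.2%. Its share in Control with that length was 14.3%. On the longest coding transcript the EDA-A2 levels of Nfkb1, 12.5 ± 0.88 CPM per kilobase, and Rela, 12.4 ± 0.44, did not differ beyond their spread (SD, n = 2 each).

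**Figure D3:**
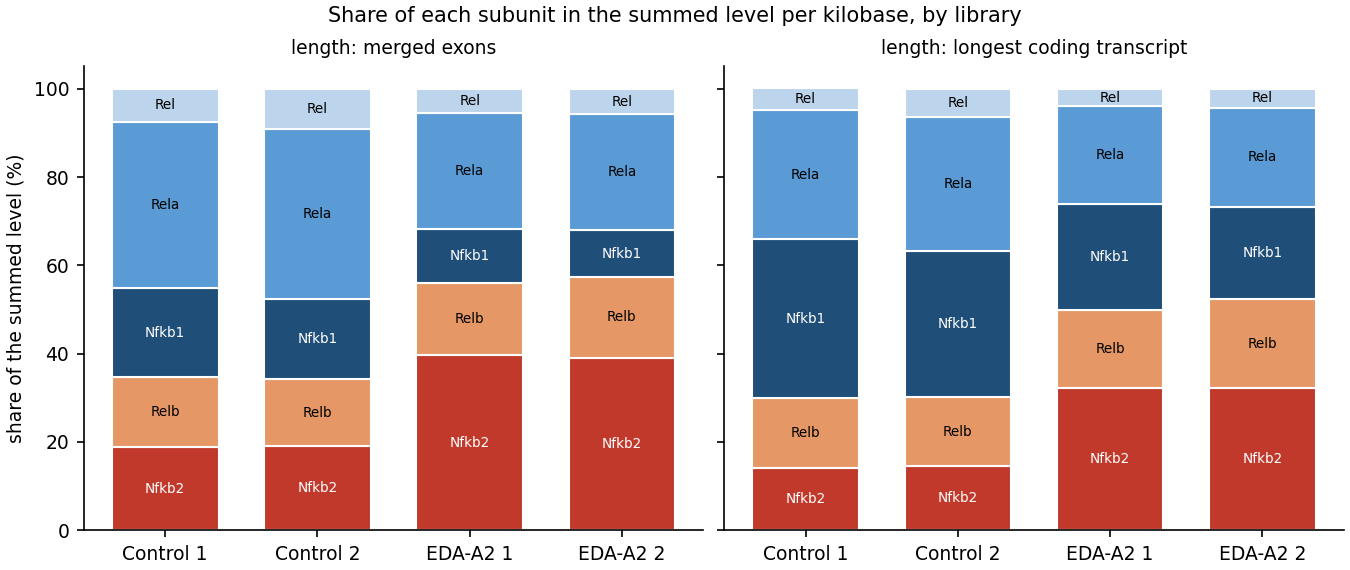
Share of each subunit in the summed level per kilobase of the family (y axis, percent, stacked to 100) in each of the 4 libraries, with merged exons (left) or the longest coding transcript (right) as length. The Nfkb2 segment is larger in both EDA-A2 libraries than in both Controls under either length.

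The windows of 250 bases before the annotated starts of coding transcripts were searched on both strands for the κB consensus motif, a site that NFκB dimers bind. The pattern was GGGRNNYYCC, with R for A or G, N for any base and Y for C or T. Other forms of the site were not searched. The sequences are those of GRCm39 and the starts those of GENCODE M39. Windows or stretches that held a match are shown, also for Rela, which was not called, and capitals mark the match. Whether these sites bear on the transcript levels was not tested. For Relb the window lies at chr7:19363424-19363673 (minus strand) and the match at 37 to 28 bases before the start at 19363423. For Nfkb2 the window before the start at 46294111 lies at chr19:46293861-46294110 (plus strand), with the match on the opposite strand at 213 to 204 bases before the start, and a short stretch with each match is shown for the start at 46293239, whose window falls wholly within exons of longer Nfkb2 transcripts. These stretches lie at chr19:46293129-46293154, where the first match reads the same on both strands and overlaps a second one by all but 1 base, and at chr19:46293157-46293182, at 102 to 93 and 74 to 65 bases before that start. For Rela the stretch shown, chr19:5687918-5687943, holds a match on the opposite strand at 61 to 52 bases before a start at 5687987. Of the 250 bases in the window before that start, 133 belong to exons of coding Rela transcripts.
Relb: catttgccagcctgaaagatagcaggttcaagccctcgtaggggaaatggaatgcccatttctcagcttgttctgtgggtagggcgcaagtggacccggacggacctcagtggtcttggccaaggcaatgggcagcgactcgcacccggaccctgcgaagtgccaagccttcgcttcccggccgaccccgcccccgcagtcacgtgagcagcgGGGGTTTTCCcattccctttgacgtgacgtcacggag
Nfkb2, start at 46294111: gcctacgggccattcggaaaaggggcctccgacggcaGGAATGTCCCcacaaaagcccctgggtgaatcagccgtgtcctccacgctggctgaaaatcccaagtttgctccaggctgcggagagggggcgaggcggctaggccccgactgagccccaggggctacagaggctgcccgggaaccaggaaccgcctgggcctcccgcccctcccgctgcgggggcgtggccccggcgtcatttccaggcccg
Nfkb2, first match before 46293239: atcgtcacGGGAATTCCCcccctcgg
Nfkb2, second site before 46293239: ggccgaaaGGGGCTTTCCcggctgga
Rela, start at 5687987: cctgcggcGGAATCTCCCccctcccc

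The windows before the most representative (canonical) transcript start of Nfkb1, Nfkb2, Rel and Rela held no match, nor did those before the 2 further starts of Nfkb1 and the further start of Relb. Of all 21757 protein-coding genes, 7.63% held at least 1 match in the window before the canonical start, and 1.07% held matches at 2 or more positions. Among the 13056 of them that were tested the shares were 8.42% and 1.09%. These shares rest on 1 window per gene, before the canonical start, where Relb alone of the subunits held a match. They are no background for the matches of Nfkb2 and Rela, which lie before further starts that were searched only for the subunits. A match describes letters in a window, and which starts were used was not visible in counts per gene.

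The other genes of the pathway were counted by role, with the same edgeR test and the same background of 2.45% called higher and 2.13% called lower. The median log2 fold change was 0.30 over the 5 subunits and 0 over all genes tested. The NFAT family, which shares the Rel homology fold in its DNA-binding part, had 0 of 5 genes called in either direction and a median log2 fold change of 0.12. NFAT5 is the member closest to NFκB in structure, and its gene Nfat5 had normalized counts of 5570 and 5599 in Control and 6084 and 6155 in EDA-A2, a log2 fold change of 0.13 (SE 0.06) with an adjusted p of 0.354 in edgeR.

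Upstream, among 12 receptors that signal to NFκB, 10 were tested, 2 were called higher and 1 lower. Eda2r, the receptor of EDA-A2, had normalized counts of 7024 and 7685 in Control and 8732 and 9951 in EDA-A2, with a log2 fold change of 0.35 (SE 0.08) and an adjusted p of 0.0178 in edgeR. Il1r1, the receptor of interleukin 1, rose by 0.39 (SE 0.09) on the log2 scale, and Tnfrsf12a, the receptor of TWEAK, fell by 0.39 (SE 0.10). With no filter on low counts, 0 receptors were called in either direction. Edar, which encodes the receptor of the other ectodysplasin isoform, had 0 counts in all 4 libraries.

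Of the 9 genes for TRAF adaptors, cIAP ligases and NIK, 5 were called higher and 0 lower. Their median log2 fold change was 0.86. Map3k14, which encodes NIK itself, had normalized counts of 437.9 and 386.2 in Control and 893.9 and 890.4 in EDA-A2, with a log2 fold change of 1.11 (SE 0.10) and an adjusted p of 7.39e-06 in edgeR. Traf3 and Traf2, whose products bring NIK to degradation, had log2 fold changes of 1.19 (SE 0.07) and 0.86 (SE 0.07). Birc3, with raw counts of 4 and 3 in Control and 69 and 54 in EDA-A2, and Traf1, with 5 and 7 against 39 and 52, were the other 2 called. Traf5 and Birc2 were not called, with log2 fold changes of 0.00 and 0.21.

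None of the 8 genes for IKK and TAK1 kinases and their partners was called by edgeR, although all 8 fitted log2 fold changes were above 0, with a median of 0.11. Chuk, which encodes the kinase IKKα that acts on p100, had a log2 fold change of 0.06 (SE 0.07). The 5 genes of the ubiquitin ligase that marks p100 and p105 for cutting or degradation had 0 calls in either direction and a median of -0.03, and 7 cofactors and modifiers of RelA had 0 calls and a median of -0.01.

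Of the 6 genes for IκB proteins, 5 were tested and 2 were called higher, Nfkbie and Nfkbia. Nfkbia, which encodes IκBα, had normalized counts of 1371 and 1271 in Control and 3550 and 3558 in EDA-A2, a log2 fold change of 1.43 (SE 0.07) with an adjusted p of 1.51e-08 in edgeR. Nfkbie, which encodes IκBε, stood at 137 and 163.4 against 1283 and 1388, a log2 fold change of 3.15 (SE 0.11). Bcl3, whose product is a nuclear IκB that binds p50 and p52 homodimers, was at 458.5 and 478 in Control and 555.8 and 550.4 in EDA-A2, and its log2 fold change of 0.24 (SE 0.10) had an adjusted p of 0.234 in edgeR.

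Of 12 genes known as targets of canonical NFκB, 10 were tested and 6 were called higher. The median over those tested was 0.63 on the log2 scale. Nfkbia and Birc3 are in this list and also in the lists above, and no subunit gene was placed in it. Tnfaip3, which encodes the feedback inhibitor A20, had normalized counts of 2258 and 1966 in Control and 4247 and 4283 in EDA-A2, with a log2 fold change of 1.01 (SE 0.08). The others called were Ccl5, Vcam1 and Cxcl1. Il6, with raw counts of 30 and 39 in Control and 34 and 39 in EDA-A2, and Sod2, with a log2 fold change of -0.01 (SE 0.07), were not called.

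Of 8 genes known as targets of noncanonical NFκB, mostly from lymphoid tissue, 2 were tested and 0 were called. Ccl19, Ccl21a, Tnfsf11, Madcam1 and Glycam1 had 0 counts in every library, where 3 counts correspond to at most 0.104 CPM. Cxcl12 had normalized counts of 1584 and 1905 in Control and 1657 and 1653 in EDA-A2, with a log2 fold change of -0.08 (SE 0.09). Tnfsf13b, which encodes the B cell factor BAFF, had raw counts of 9 and 15 in Control and 24 and 17 in EDA-A2, and its fitted log2 fold change of 0.71 (SE 0.43) had an adjusted p of 0.488 in edgeR.

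**Figure D4:**
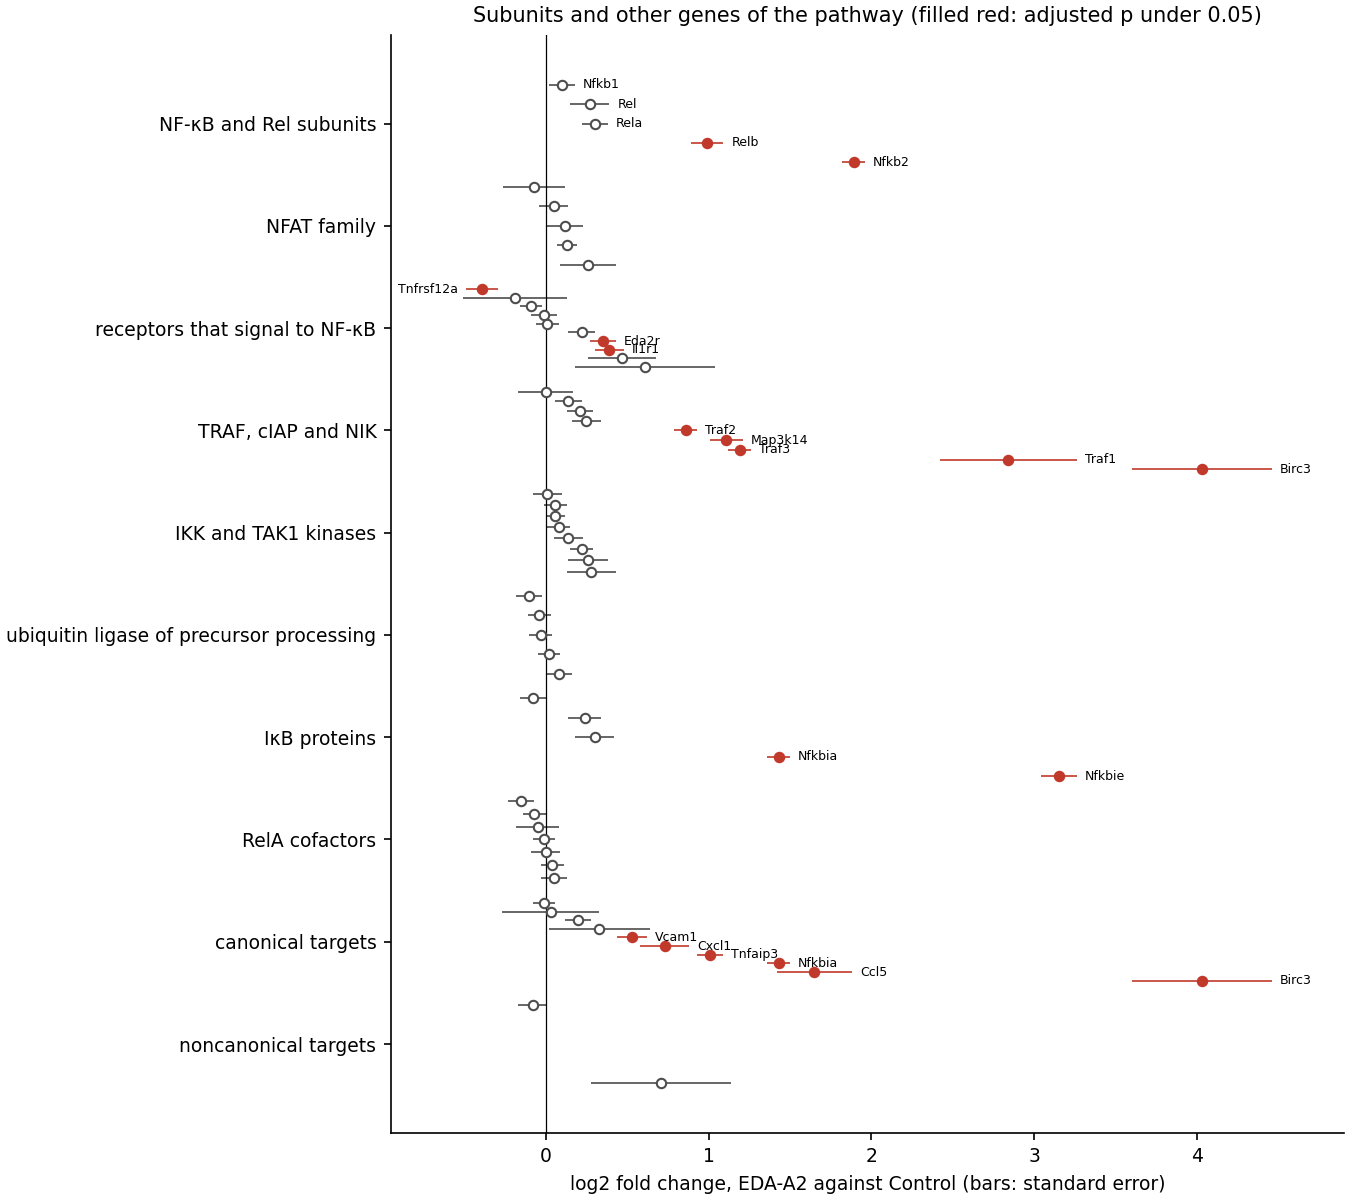
Fitted log2 fold change of EDA-A2 against Control (x axis) with its standard error, for every tested gene of each list (rows), filled red where edgeR's adjusted p was under 0.05. Nfkb2 and Relb stand to the right of the 3 canonical subunits, and the other genes called lie among canonical targets, TRAF, cIAP and NIK, receptors and IκB proteins. Nfkbia and Birc3 appear in both lists that hold them, and the fitted value of Birc3 rests on 4 and 3 counts in the Controls.

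The genes whose profiles over the 4 libraries were most like those of Nfkb2 and Relb were found by the Euclidean distance between centred log2 CPM values, among 10940 well counted protein-coding genes. For Nfkb2 they were Colq at a distance of 0.123, Rrad at 0.208 and Apobec3 at 0.259. Colq encodes the collagen tail that anchors acetylcholinesterase at the synapse and had normalized counts of 518.2 and 579.8 in Control and 2019 and 2147 in EDA-A2. For Relb they were Erap1 at 0.0647, Stat5a at 0.126 and Gem at 0.13. Erap1 encodes an aminopeptidase that trims peptides for antigen presentation and had 275.1 and 249.1 normalized counts in Control and 461.7 and 554.3 in EDA-A2. These distances rest on 4 libraries and are a description only.

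The exons of Nfkb2 overlap those of 2 genes on the opposite strand, Psd over 1933 bases and the long noncoding RNA 4833438C02Rik over 1081 bases, and the strand option of the counting is not given in the sources used here. If strand was not used, reads of Nfkb2 and of these genes cannot be told apart where they overlap. Psd had raw counts of 37 and 44 in Control and 31 and 39 in EDA-A2, with a log2 fold change of -0.26 (SE 0.29, adjusted p of 0.761 in edgeR). The counts of 4833438C02Rik were 70 and 87 in Control and 182 and 154 in EDA-A2, a log2 fold change of 1.04 (SE 0.19) with an adjusted p of 0.00412 in edgeR. Counts of both were far below those of Nfkb2 in every library. Clasrp and Clptm1, the nearest genes to Relb, lie 568 and 885 bases away on the same strand, share no exon with it, and had log2 fold changes of -0.04 (SE 0.10) and -0.01 (SE 0.07).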

How the data were processed

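The authors deposited raw counts of read pairs per Ensembl gene, 1 table for each of the 4 libraries, without normalization. Stranded mRNA libraries were, per the submitters' processing notes and the paper's methods, trimmed with Trim Galore 0.6.5, mapped to GRCm39 with STAR 2.7.3a and counted with HTSeq 0.11.1. The annotation release and the strand option are not given in the sources used here. Summary lines of HTSeq entered neither the library sizes nor any test. Per library these held 6.68% to 7.4% of pairs outside genes, 0.946% to 0.986% ambiguous between genes and 4.56% to 4.76% not mapped uniquely. Symbols and lengths came from GENCODE M39, which matched 52610 of the 53647 genes.

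Groups were taken from the labels. The test was edgeR 4.0.16's quasi-likelihood F test in R 4.3.3, with TMM factors of 0.972 to 1.026 and no term beside the treatment. Low genes were removed with filterByExpr, set to a minimum of 10 counts and to 15 in total. Adjustment followed Benjamini and Hochberg over the 15173 genes tested, with a threshold of 0.05, which 371 genes passed higher and 323 lower. The standard error was obtained from the log2 fold change and the F statistic, as their ratio after taking the root of F, and intervals use it with the degrees of freedom of the fit. The common dispersion was 0.00384, and chi-square per gene between the libraries of a group was 9.33 for Control and 4.45 for EDA-A2, so no library was a copy of another. To obtain normalized counts, each library was brought to the mean of the TMM-adjusted sizes. Profiles were compared on log2 CPM with a prior count of 2, over genes whose normalized counts averaged 100 or more. The edgeR and DESeq2 fits of all libraries were run on simulated counts, and the other steps were not tested in this way.

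The members and gene lists were chosen with earlier results of these data known. Named were the 5 subunits, Eda2r, Map3k14, Nfkbia and Bcl3, up to 3 genes called with the smallest p in each list, and the 3 nearest profiles of each subunit called. Other genes of the lists that are named were chosen after their values were seen. Tried as alternatives were total counts, upper quartile factors or the size factors of DESeq2 as scaling, no filter, at least 10 counts in every library, the Wald test of DESeq2 1.42.0, a block for the replicate number, other lengths, and each library left out, also with DESeq2. The result of 1 list of cell type markers is not reported here.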

Additional observations from a re-analysis of the deposited data

How the results depend on the processing

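Over all alternatives the log2 fold changes ran from 1.86 to 1.95 for Nfkb2, 0.86 to 1.11 for Relb, 0.26 to 0.35 for Rela, 0.14 to 0.41 for Rel and 0.02 to 0.19 for Nfkb1, and Nfkb2 and Relb passed the threshold in 13 of 15 fits each. No log2 fold change of a subunit changed sign in these fits, nor did the differences Nfkb2 minus Nfkb1 and Relb minus Rela. Median log2 fold changes near 0 did change sign in some fits, for the NFAT family, the receptors, the ubiquitin ligase and the RelA cofactors. That of the noncanonical targets went from 0.32 to -0.07 with at least 10 counts in every library. Rela passed with total counts (0.35) and with the replicate block (0.30). Genes called higher numbered 371 and lower 323 in the reported fit, 485 and 194 with total counts, 64 and 22 with no filter, and 537 and 529 with the block. Replicate numbers paired nothing the labels name, and the differences between replicates correlated at 0.06 between the groups. The receptors had 0 called higher with no filter and 0 lower with no filter or total counts. The TRAF, cIAP and NIK list had 3 with at least 10 counts in every library, which removes Birc3 and Traf1, 4 with no filter and 6 with the block, and the IKK and TAK1 list had 1 with total counts and 1 with the block. The cause of the other shifts was not tested.

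With a library left out, a lone library is taken to vary like the other group. In edgeR these fits gave 1.86 to 1.92 for Nfkb2 and 0.86 to 1.10 for Relb, 0 to 2 subunits called, 0 to 238 genes higher and 0 to 170 lower. DESeq2 called 176 higher and 147 lower without Control 1, 225 and 251 without Control 2, 73 and 41 without EDA-A2 1, and 69 and 54 without EDA-A2 2. With either tool they called 0 to 2 IκB genes, 0 to 1 receptors higher and 0 to 1 lower, 0 to 5 of the TRAF, cIAP and NIK genes and 0 to 6 canonical targets. The zeros came from edgeR without a Control library, except among receptors.

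Mean shares in Control with the longest coding transcript were 34.6% (Nfkb1), 14.3% (Nfkb2), 5.63% (Rel) and 29.9% (Rela), and in EDA-A2 22.6%, 32.2%, 4.12%, 22.3% and, for Relb, 18.9%. With no length they were 37.1%, 22.5%, 9.75%, 18.8% and 11.9% (Relb) in Control and 21.9%, 45.9%, 6.46%, 12.7% and 13% in EDA-A2. At 2 libraries per group the median standard error over all genes was 0.10 on the log2 scale, which limits what could be seen of changes as small as those of Nfkb1 and Rel.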
